A study of Mus musculus with 2 samples.

Results

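Cholesterol in the brain is made in the brain, because lipoproteins of the blood do not cross the blood-brain barrier. The mevalonate pathway turns acetyl units into farnesyl diphosphate, and a second run of enzymes turns squalene into cholesterol. The transcription factor SREBP-2 switches on most of these genes when membrane cholesterol is low, while LXR receptors, which sense oxysterols, switch on the exporters. In the young brain astrocytes are known to release cholesterol on apolipoprotein E particles, and oligodendrocytes are known to need large amounts of it for myelin.

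The genes described are 29 members of cholesterol synthesis, uptake and export, given as a list of symbols and matched to the 32285 genes of the deposited count tables. All 29 were found once in each table. They comprise 7 enzymes of the mevalonate pathway, 11 enzymes from squalene to cholesterol, 5 genes of SREBP control, 4 of transport and export, and 2 of storage and turnover. All 29 passed the filter on low counts, so none was left out of the tests.

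The data are single-cell RNA-seq of whole brain from C57BL/J mice at postnatal day 10, made with the 10x Chromium 3′ kit, version 3. There are 2 libraries, both of 1 group of unmanipulated animals, so cell classes are compared here, not treatments. The study names 6 mice, and the sources used here do not tie them to the libraries. The p-values therefore measure how far differences between classes vary from 1 of these 2 libraries to the other, pooled over the classes. That variation may be technical. Library 1 held 12978 cell barcodes and 51452085 unique molecular identifier (UMI) counts, with a median of 3446 per barcode, and library 2 held 19508 barcodes and 45532691 counts, with a median of 1470. After filters on quality and doublets, 11992 and 14121 cells were kept, and 90 barcode sequences occurred in both libraries.

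Cells were clustered without the 29 members, and clusters were called by marker genes. Astrocyte-like cells numbered 1261 in library 1 and 541 in library 2, oligodendrocyte precursor-like cells 1856 and 785, differentiating oligodendrocyte-like cells 466 and 46, neuroblast-like cells 786 and 541, and excitatory neuron-like cells 959 and 648. Microglia-like cells numbered 94 and 1962, endothelial-like cells 110 and 124, and pericyte-like cells 530 and 68. Each cluster that carries one of these names had between 6 and 11 markers of that type detected. The microglia-like class was led in its larger cluster by the stress and immune genes Spp1, Gdf15 and Ccl4. The pericyte-like class had the smooth muscle genes Acta2 and Tagln among its leading genes. In library 2, 4893 cells of low UMI count, against 62 in library 1, stayed unnamed and are in no comparison. The larger of their clusters, with 2740 cells in library 2, scored best on the microglia list, with 6 markers detected. It was left unnamed because it was shallow and came almost wholly from library 2. A pair of large clusters led by Prokr2 and 1 cluster led by Sst were kept under those gene names. The Prokr2-led clusters scored best on the neuroblast list, with 10 of its markers detected. They were not named neuroblast-like because Gad1, an inhibitory marker, but no neuroblast marker was among their 10 leading genes. The neuroblast-like class therefore leaves out these cells, 3186 in library 1 and 2972 in library 2. Cells of the Prokr2-led and Sst-led clusters were treated apart. They are not part of the neuron lineage below. Levels are given as CPM, the counts of a gene scaled to a common total of a class's summed UMIs in each library, library 1 first.

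Summed over the 18 synthesis enzymes, astrocyte-like cells stood highest, at 2982 and 2976 CPM. Differentiating oligodendrocyte-like cells came next at 1792 and 1837 CPM, and oligodendrocyte precursor-like cells followed at 1484 and 1593 CPM. These 3 classes kept that order in both libraries, with no overlap between them. Neuroblast-like cells, at 1073 and 1037 CPM, and neural progenitor-like cells, at 932 and 1232 CPM, overlapped. The Prokr2-led class, which also carried neuroblast markers, was at 547 and 561 CPM. Excitatory neuron-like cells were at 467 in both libraries. The pericyte-like class (406 and 369 CPM), the endothelial-like class (391 and 325 CPM) and the microglia-like class (358 and 327 CPM) followed. The endothelial-like values overlapped those of both others, while both pericyte-like values lay above both microglia-like values. Border macrophage-like cells were lowest of the 14 classes, at 264 and 301 CPM.

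The astrocyte-like sum was 1.66 and 1.62 times that of differentiating oligodendrocyte-like cells in the 2 libraries and 6.38 and 6.37 times that of excitatory neuron-like cells. It was 8.33 and 9.09 times that of microglia-like cells. The ratios to neural progenitor-like cells were 3.20 and 2.42, further apart than those before.

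**Figure D1:**
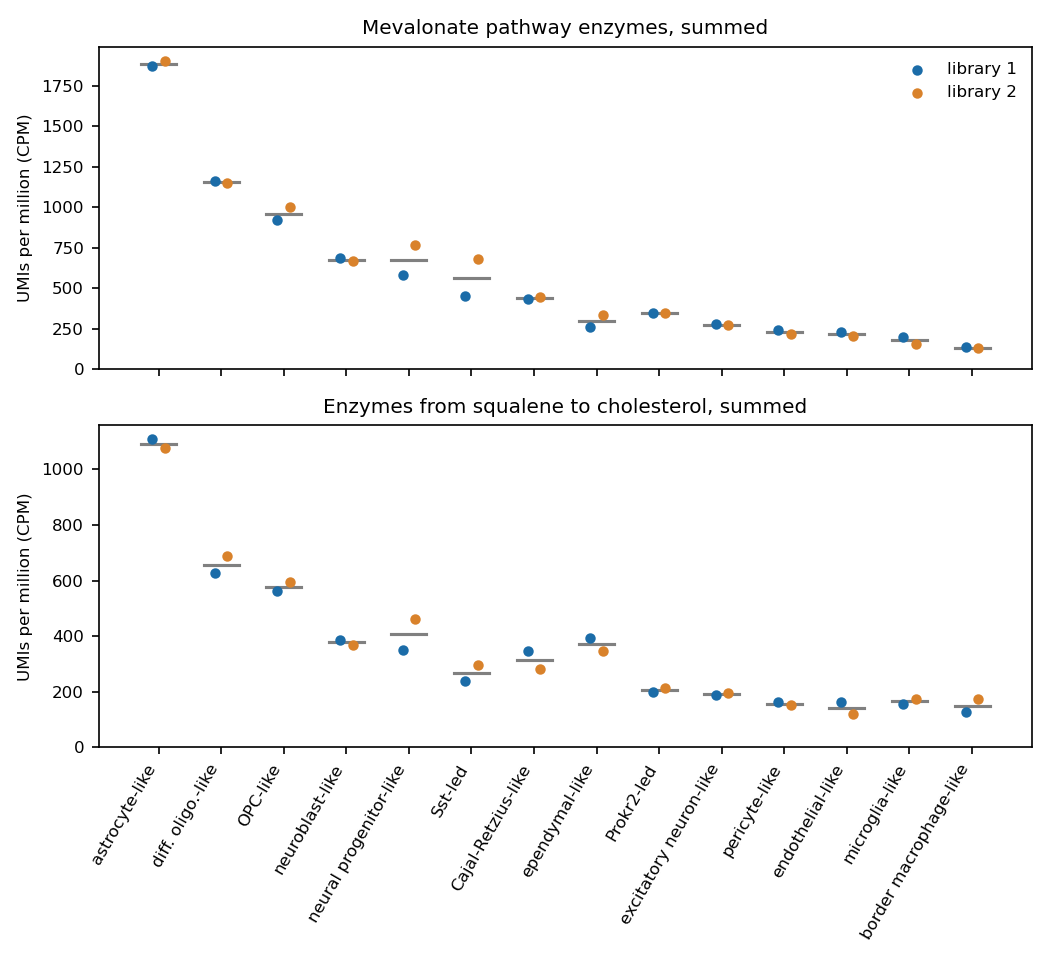
Summed level (CPM, linear axes from 0) of the mevalonate pathway enzymes (top) and of the enzymes from squalene to cholesterol (bottom) in the 14 cell classes, ordered by the sum of all 18 except that neuroblast-like cells stand left of neural progenitor-like cells. Points are the 2 libraries and lines their mean; astrocyte-like cells lie above every other class in both panels.

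The synthesis enzymes were also counted cell by cell. Each cell was taken at an equal depth of 2000 UMIs, as the expectation over all possible draws of that size, and cells with fewer were left out: 70 and 36 astrocyte-like cells and 23 and 321 microglia-like cells. At that depth, 82.1% (95% Clopper-Pearson interval 79.8 to 84.3) of astrocyte-like cells in library 1 and 82.0% (78.3 to 85.2) in library 2 held at least 3 UMIs of synthesis enzymes. Differentiating oligodendrocyte-like cells reached 54.2% and 54.1%, oligodendrocyte precursor-like cells 46.9% and 48.5%, and neuroblast-like cells 36.0% and 35.1%. Neural progenitor-like cells were below these, at 24.6% and 30.7%. Excitatory neuron-like cells were at 7.32% and 7.08%. The intervals cover counting error only. They were taken on the expected number of cells rounded to a whole number, so they are approximate, most of all where cells are few.

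Microglia-like cells were at 5.30% and 4.66%, endothelial-like cells at 4.60% and 3.95%, and pericyte-like cells at 6.08% and 6.75%. Erythroid-like cells and neutrophil or monocyte-like cells were taken as classes that should make little cholesterol. In library 2 the share was 3.93% of 26 erythroid-like cells (interval 0.097 to 19.6, median depth 5392.5 UMIs over all 28) and 2.67% of 51 neutrophil or monocyte-like cells (0.050 to 10.4). Both intervals include the microglia-like, endothelial-like, pericyte-like and excitatory neuron-like shares, so the few cells do not set a firm background level. Without equal depth the shares were 93.4% and 93.2% in astrocyte-like cells and 12.8% and 17.2% in microglia-like cells, whose median depths were 4091 and 4562 UMIs and 3086.5 and 3671 UMIs. The median astrocyte-like cell held 5.49 and 5.44 expected synthesis UMIs per 2000, against 0.483 and 0.487 in the median microglia-like cell. A mean of 4.05 and 4.07 different enzymes was detected per astrocyte-like cell at this depth, against 0.582 and 0.604 per microglia-like cell.

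Lineages were then compared gene by gene. Each of 5 lineages (astrocyte-like, oligodendrocyte lineage-like, neuron lineage-like, microglia-like and vessel cell-like) was set against the mean of the other 4 with edgeR's quasi-likelihood test on summed counts, library as a block, and Benjamini-Hochberg adjustment over 13616 genes. The oligodendrocyte lineage joins precursor-like and differentiating cells, the neuron lineage joins neuroblast-like and excitatory neuron-like cells, and the vessel cells join endothelial-like and pericyte-like cells. Calls required an adjusted p under 0.05, a change of 1 or more on the log2 scale and agreement of the sign between the libraries. The fitted fold change is against the mean of the logarithms of the other lineages. It can therefore exceed the ratio of the printed CPM values, which are plain means.

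In astrocyte-like cells 24 of the 29 members were higher and 2 lower, where 20.9% of all genes tested were called higher and 4.70% lower. The genes tested leave out 2041 clustering and marker genes, chosen as variable or class-specific, while the members and the pathway lists below were exempt from that rule. The shares of all genes given here and below are thus shares of the remaining genes. How the genes left out would change them was not tested. The members' median log2 fold change was 1.71, and that of all genes 0.10. In the oligodendrocyte lineage 13 members were higher and 1 lower, against 12.3% and 7.74% of all genes, with medians of 0.81 over the members and -0.01 over all genes. In the neuron lineage 0 members were higher and 8 lower, against 12.8% and 12.1% of all genes. The neuron medians were -0.49 over the members and -0.02 over all genes. At an unadjusted p under 0.05, 4 members had a positive and 19 a negative neuron fold change, and DESeq2 called 0 higher.

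In microglia-like cells 5 members were higher and 13 lower, against 17.6% and 13.3% of all genes, with medians of -0.96 over the members and -0.02 over all genes. In vessel cells 2 members were higher and 18 lower, against 11.9% and 11.7% of all genes, with medians of -1.39 and -0.14. The share of members called higher thus lay above the share of all genes in the astrocyte-like and oligodendrocyte comparisons. The share called lower lay above it in the neuron, microglia-like and vessel comparisons. The 5 comparisons share their cells, since each lineage is part of the mean the others are set against.

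**Figure D2:**
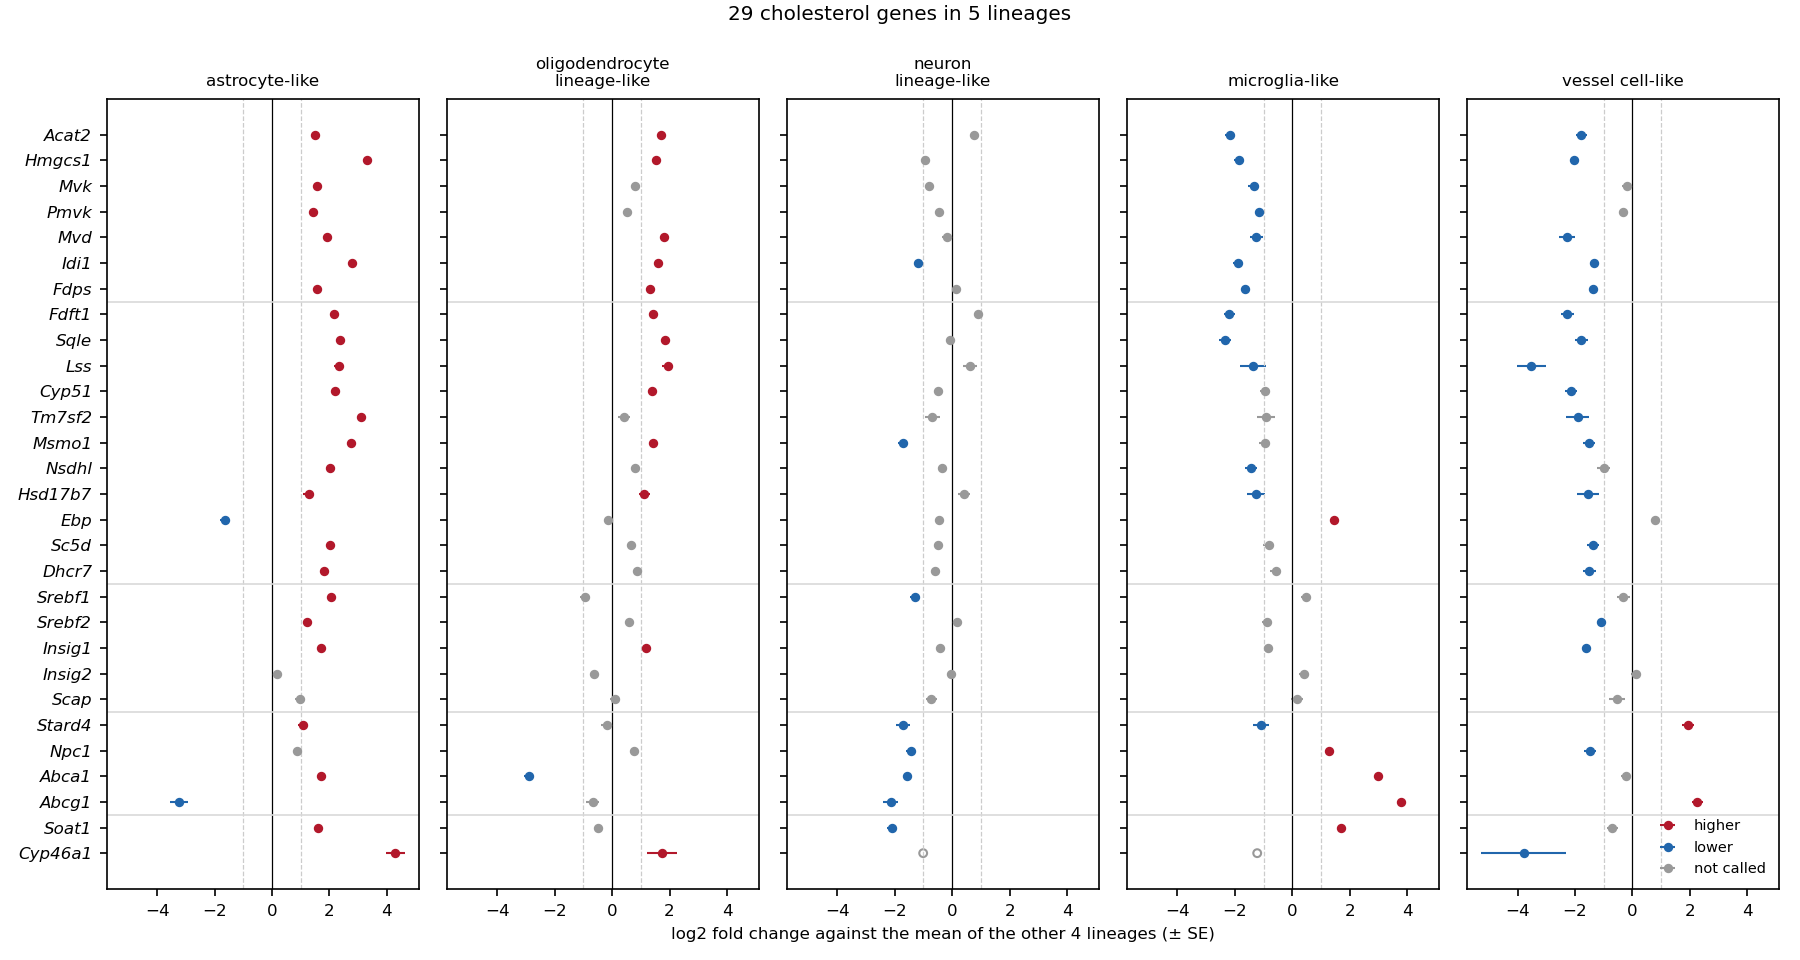
Log2 fold change (± SE) of each of the 29 members in 5 lineages, each against the mean of the other 4; red points were called higher, blue lower and grey not called, dashed lines mark the limit of 1, and an open circle has no usable SE. In the astrocyte-like panel 24 members are called higher, and Ebp and Abcg1 are called lower.

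All 7 mevalonate pathway enzymes were higher in astrocyte-like cells. Hmgcs1, which makes HMG-CoA (mm10 chromosome 13, 119690379 to 119708260, plus strand), was at 825 and 791 CPM in astrocyte-like cells, against 114 and 111 CPM in the other lineages. Its log2 fold change was 3.31 ± 0.09 (SE, adjusted p = 1.03e-42). Idi1, the isomerase that makes the second of the building blocks (chromosome 13, 8885501 to 8892451, plus strand), was at 322 and 319 CPM, against 68.2 and 68.8 CPM. Its log2 fold change was 2.79 ± 0.09 (adjusted p = 5.3e-48). Both genes stood clear of every other class in both libraries.

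Fdps, which joins the building blocks into farnesyl diphosphate (chromosome 3, 89093588 to 89101959, minus strand), was at 336 and 396 CPM in astrocyte-like cells, against 153 and 152 CPM. Its log2 fold change was 1.56 ± 0.08 (adjusted p = 2.64e-34), but differentiating oligodendrocyte-like cells, at 369 and 340 CPM, overlapped the astrocyte-like values. The remaining mevalonate genes were Acat2, a thiolase, the kinases Mvk and Pmvk, and Mvd, a decarboxylase, with astrocyte-like log2 fold changes between 1.41 and 1.90. Acat2 and Mvd were highest of all classes in differentiating oligodendrocyte-like cells, at 111 and 108 CPM and at 71.5 and 83.3 CPM, against 93.7 and 93.9 CPM and 59.1 and 65.2 CPM in astrocyte-like cells.

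In the oligodendrocyte lineage 5 of the 7 mevalonate enzymes were higher. They were Mvd (log2 fold change 1.81 ± 0.12), Acat2 (1.70 ± 0.10), Idi1 (1.61 ± 0.09), Hmgcs1 (1.51 ± 0.09) and Fdps (1.32 ± 0.08). Mvk and Pmvk, at log2 fold changes of 0.81 and 0.53, did not reach a change of 1. In the neuron lineage 1 of 7, Idi1, was lower, at 66.3 and 48.7 CPM against 132 and 136 CPM (log2 fold change -1.18 ± 0.13, adjusted p = 2.53e-13). In microglia-like cells all 7 were lower, from -1.14 for Pmvk to -2.17 for Acat2 on the log2 scale; without library 1 Mvk was at -0.96 and Mvd at -0.78. In vessel cells 5 of 7 were lower, from -1.32 for Idi1 to -2.28 for Mvd, while Mvk and Pmvk were not called. Mvd had no UMI in pericyte-like cells of library 2, so its vessel fold change, -3.69 without library 1, depends on the model.

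From squalene to cholesterol, 10 of 11 enzymes were higher in astrocyte-like cells and 1 was lower. Tm7sf2, a sterol reductase (chromosome 19, 6062821 to 6068373, minus strand), was at 63.5 and 64.8 CPM in astrocyte-like cells, against 7.72 and 7.13 CPM. Its log2 fold change was 3.11 ± 0.16 (adjusted p = 1.48e-30). Its exons overlap those of Vps51 on the same strand by up to 532 bases, so its counts are uncertain to that extent. Differentiating oligodendrocyte-like cells, next in order, held 12.8 and 20.8 CPM.

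Msmo1, which removes methyl groups from sterols (chromosome 8, 64718139 to 64733792, minus strand), was at 354 and 332 CPM in astrocyte-like cells, against 60.7 and 66.7 CPM. Its log2 fold change was 2.77 ± 0.11 (adjusted p = 9.52e-20). Sqle, the squalene epoxidase (chromosome 15, 59315077 to 59331192, plus strand), was at 110 and 114 CPM, against 30.9 and 34.5 CPM, a log2 fold change of 2.36 ± 0.11. Sqle was nevertheless highest in ependymal-like cells, a class outside the 5 lineages, at 168 and 131 CPM. Lss, the lanosterol synthase, and Cyp51, the lanosterol demethylase, had astrocyte-like log2 fold changes of 2.34 ± 0.19 and 2.21 ± 0.10.

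Fdft1, the squalene synthase, reached 2.16, Sc5d, a desaturase, 2.01, Dhcr7, a reductase of the last steps, 1.82, and Hsd17b7, a ketosteroid reductase, 1.28. Nsdhl, a sterol dehydrogenase, was at 70.5 and 74.3 CPM, against 17.8 and 18.1 CPM. In the oligodendrocyte lineage 6 of these 11 enzymes were higher, led by Lss (1.93 ± 0.19) and Sqle (1.85 ± 0.11), followed by Fdft1, Msmo1, Cyp51 and Hsd17b7. Hsd17b7 rested on library 1, at 1.12 with both libraries and 0.53 without it. Tm7sf2 was not among them, at 13.5 and 16.2 CPM in the oligodendrocyte lineage against 20.2 and 19.3 CPM in the others. In the neuron lineage Msmo1 alone was lower, at 42.0 and 29.9 CPM against 139 and 142 CPM (log2 fold change -1.71 ± 0.16). Fdft1 stood on the other side in neurons without being called, at 65.4 and 61.0 CPM against 55.4 and 58.9 CPM (log2 fold change 0.88).

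Microglia-like cells were lower in 5 of the 11 (Sqle -2.34, Fdft1 -2.19, Nsdhl -1.45, Lss -1.36 and Hsd17b7 -1.27) and higher in 1, Ebp. Vessel cells were lower in 9 of the 11, from -1.37 for Sc5d to -3.52 for Lss. Single libraries gave other sizes: Fdft1 was at -1.45 in microglia-like cells without library 2 and at -1.51 in vessel cells without library 1, and Sc5d at -0.84 in vessel cells without library 2. Lss had no UMI in microglia-like cells of library 1 and none in endothelial-like cells of library 1 or pericyte-like cells of library 2. Tm7sf2 had none in either vessel class of library 2. The fitted fold changes of these 2 genes in those lineages thus depend on the model and are not sizes to compare: Lss was at -3.87 in microglia-like cells without library 2, and Tm7sf2 at -4.41 and -1.05 in vessel cells without library 1 and without library 2. A count of 0 allowed up to 9.03 CPM in microglia-like cells of library 1 and up to 11.9 CPM in pericyte-like cells of library 2.

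Of the 18 synthesis enzymes, 11 were highest of the 14 classes in astrocyte-like cells in both libraries. Across the 14 classes, the level of each gene was set beside the sum of the other synthesis enzymes as a description, since classes share libraries. Hmgcs1 and Fdps had a Spearman rho of 0.97, Nsdhl 0.96 and Pmvk, the lowest of the positive values among the enzymes, 0.71. Within a library the values were lower for some, at 0.50 for Hsd17b7, 0.65 for Mvk and 0.67 for Pmvk in library 1. The rho of 17 of the 18 enzymes was positive.

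**Figure D3:**
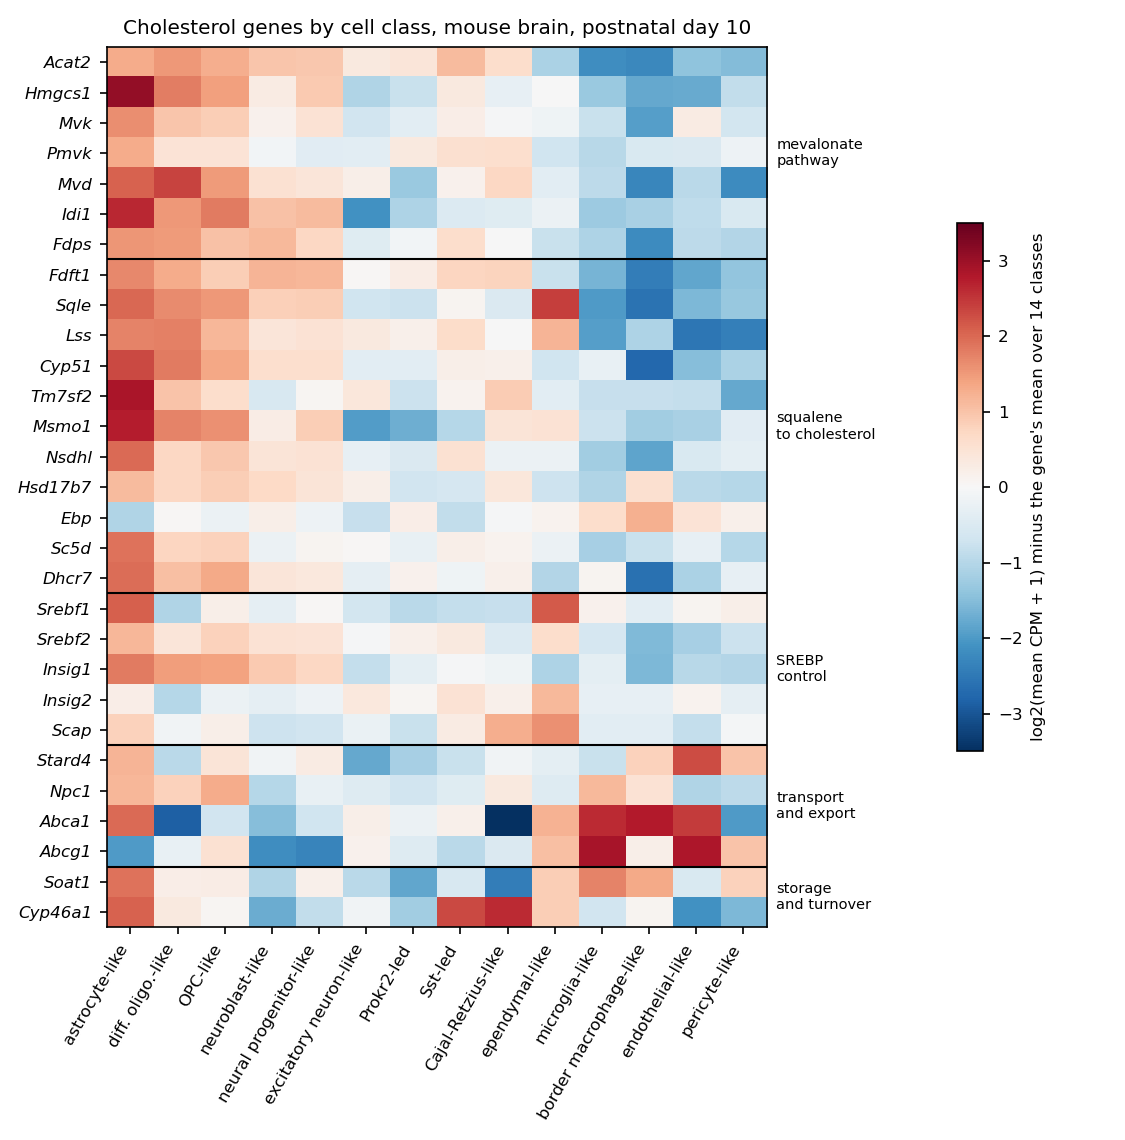
Level of each of the 29 members (rows, grouped by step) in the 14 classes (columns), as log2(mean CPM + 1) minus the gene's own mean over the classes; red is above that mean and blue below it. The astrocyte-like column is red for most synthesis enzymes and blue for Ebp and Abcg1, while Abca1 is also red in microglia-like, border macrophage-like and endothelial-like cells.

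Ebp, the sterol isomerase (chromosome X, 8185329 to 8193512, minus strand), was the exception. It was at 11.4 and 17.7 CPM in astrocyte-like cells, against 37.0 and 35.7 CPM in the other lineages, a log2 fold change of -1.65 ± 0.16 (adjusted p = 4.6e-16). In microglia-like cells it was at 39.1 and 58.5 CPM, against 30.1 and 25.5 CPM, a log2 fold change of 1.44 ± 0.13 (adjusted p = 2.71e-17). Astrocyte-like cells held less Ebp in both libraries than each of the other 4 lineages, and border macrophage-like cells held the most of any class, at 72.1 and 79.1 CPM. Without library 1 the astrocyte-like difference was -0.995, and without library 2 the microglia-like difference was 0.68.

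Ebp's rho with the sum of the other enzymes across the 14 classes was -0.72, at -0.71 in library 1 and -0.37 in library 2. At 2000 UMIs per cell, 1.91% and 3.06% of astrocyte-like cells held an Ebp UMI, against 7.91% and 11.3% of microglia-like cells and 12.9% and 14.5% of border macrophage-like cells. Without equal depth the astrocyte-like shares were 4.76% and 8.13% and the microglia-like shares 13.8% and 20.6%. Both astrocyte-like clusters were low in Ebp, at 16.9 and 20.3 CPM in the cluster led by Pla2g3, Myoc and Aqp4 and at 5.84 and 8.69 CPM in the cluster led by Crym, Hgf and Fam107a.

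**Figure D4:**
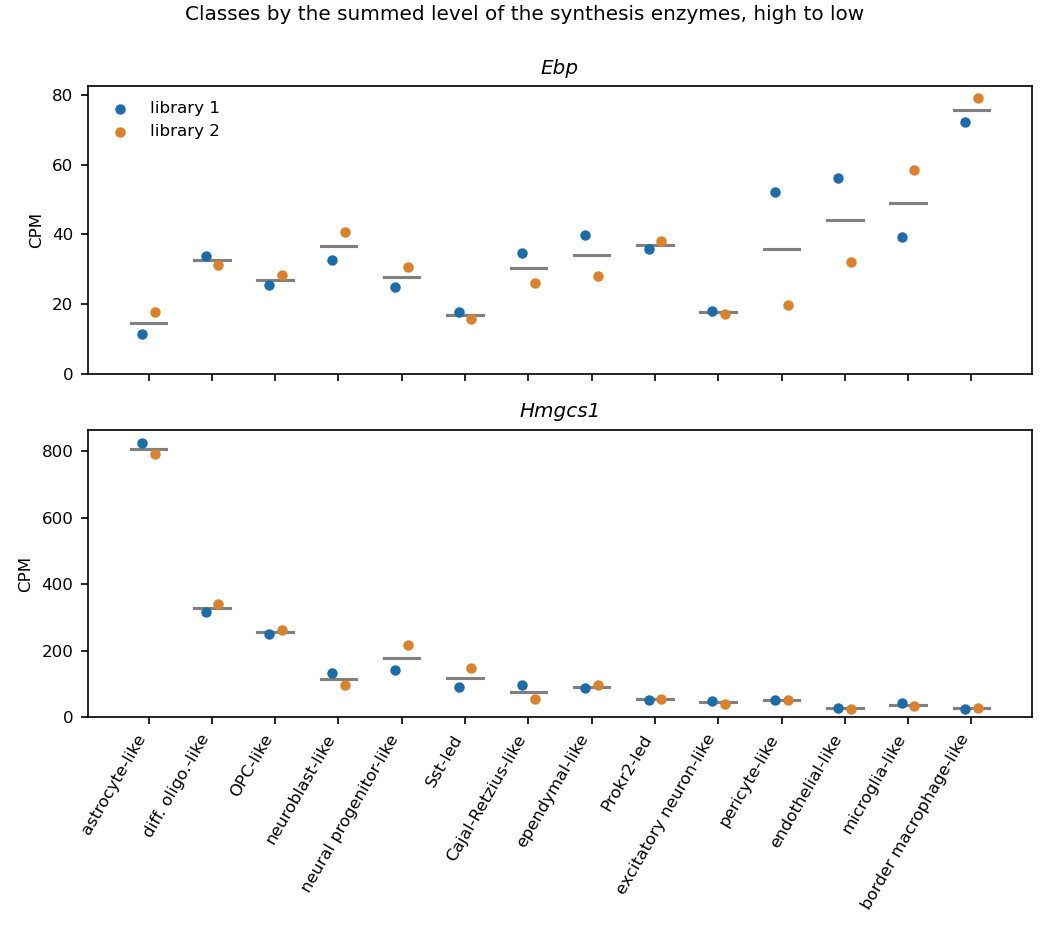
Ebp (top) and Hmgcs1 (bottom) levels (CPM, linear axes from 0) in the 14 classes, ordered by the summed synthesis enzymes except that neuroblast-like cells stand left of neural progenitor-like cells; points are the 2 libraries and lines their mean. Hmgcs1 is highest in astrocyte-like cells (825 and 791 CPM), where Ebp is low (11.4 and 17.7 CPM), near the Ebp of excitatory neuron-like cells (18.1 and 17.1 CPM).

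Sequences of 5 promoters are shown because these enzymes moved together across classes while Ebp did not. They are the 180 bases before the RefSeq start in build GRCm38.p6, 5′ to 3′ on the gene's own strand, for Hmgcs1, Idi1 and Msmo1, which are 3 of the 4 enzymes with the largest astrocyte-like fold change, for Mvk, and for Ebp. Capitals mark CCAAT in either orientation (read as ATTGG on the other strand), the letters bound by NF-Y, a factor known to act with SREBP. In Hmgcs1 capitals also mark a match to TCACNCCAC, a form of the sterol regulatory element.
Hmgcs1 (chr13:119690171-119690350, plus strand): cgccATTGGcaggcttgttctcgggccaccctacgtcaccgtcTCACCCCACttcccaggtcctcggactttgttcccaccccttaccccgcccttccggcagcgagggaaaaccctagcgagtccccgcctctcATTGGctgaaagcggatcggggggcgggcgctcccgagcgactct
Idi1 (chr13:8885426-8885605, plus strand): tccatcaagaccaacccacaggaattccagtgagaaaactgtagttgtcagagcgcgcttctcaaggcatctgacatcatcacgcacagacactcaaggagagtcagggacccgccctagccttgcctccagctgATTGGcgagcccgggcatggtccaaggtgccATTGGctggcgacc
Msmo1 (chr8:64733579-64733758, minus strand): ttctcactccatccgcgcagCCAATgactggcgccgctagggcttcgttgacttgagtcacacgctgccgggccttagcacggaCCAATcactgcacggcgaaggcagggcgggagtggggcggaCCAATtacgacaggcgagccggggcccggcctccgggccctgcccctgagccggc
Mvk (chr5:114444089-114444268, plus strand): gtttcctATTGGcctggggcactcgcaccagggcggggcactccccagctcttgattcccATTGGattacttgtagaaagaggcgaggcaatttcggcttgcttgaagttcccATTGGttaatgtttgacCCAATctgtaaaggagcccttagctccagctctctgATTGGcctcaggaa
Ebp (chrX:8193513-8193692, minus strand): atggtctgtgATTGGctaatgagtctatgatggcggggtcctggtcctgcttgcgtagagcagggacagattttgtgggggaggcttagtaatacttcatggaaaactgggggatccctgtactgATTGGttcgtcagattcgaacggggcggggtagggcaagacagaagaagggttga

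Windows of 250 bases before the start were found in the RefSeq promoter table for 23 of the 29 members. Abcg1, Fdft1, Fdps, Npc1, Sqle and Stard4 were not matched. Motifs were searched on both strands, and a gene counted if any of its windows matched. There were 31 windows for the 23 members and 32851 for all 27025 genes. All genes with a window were taken, expressed or not, while every member passed the filter on low counts. The shares below were not compared with those of expressed genes alone. CCAAT stood in the windows of 20 of the 23 members (87.0%), against 37.5% of the 27025 genes with a window. GGGCGG, the core of an SP1 box, stood in 21 of 23 (91.3%), against 35.4%, and CACGTG, an E-box, in 6 of 23 (26.1%), against 6.86%. TCACNCCAC stood in 1 of 23, Hmgcs1, 137 bases before its start, against 1.23% of all genes. The Mvk stretch holds 4 copies of CCAAT on the reverse strand at a regular spacing of 53 bases. The Ebp stretch holds 2 matches to CCAAT, as the Idi1 stretch does, and CCAAT stood in 14 of the 15 synthesis enzymes with a window. A link between the motif and the level of Ebp was not tested. A match is a description of letters and not a site of binding.

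Of the 5 control genes, 3 were higher in astrocyte-like cells and none lower. Srebf1, which encodes SREBP-1 (chromosome 11, 60199089 to 60222581, minus strand), was at 69.8 and 51.5 CPM in astrocyte-like cells, against 12.9 and 12.2 CPM, a log2 fold change of 2.06 ± 0.12 (adjusted p = 9.84e-31). Insig1, which holds the SREBP carrier in the endoplasmic reticulum and is itself a target of SREBP (chromosome 5, 28071363 to 28078662, plus strand), was at 383 and 368 CPM, against 139 and 139 CPM, a log2 fold change of 1.70 ± 0.08. Srebf2, which encodes SREBP-2 (chromosome 15, 82147181 to 82205379, plus strand), was at 116 and 107 CPM, against 53.5 and 43.8 CPM, a log2 fold change of 1.23 ± 0.10, and 0.88 without a call under stricter cell quality limits. Astrocyte-like values lay above the mean of the other lineages for all 3 genes in both libraries.

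Scap, the carrier itself, missed the limit of 1 in astrocyte-like cells, with 26.9 and 21.6 CPM against 10.6 and 11.3 CPM (log2 fold change 0.97, adjusted p = 6.63e-08). Insig2, the second retention gene, was at 32.0 and 25.1 CPM, against 22.8 and 19.1 CPM, and did not pass the test. In the oligodendrocyte lineage Insig1 was higher, at 263 and 313 CPM against 169 and 153 CPM (log2 fold change 1.19 ± 0.07). In neurons Srebf1 was lower (-1.29 ± 0.17, and -0.83 without library 1), and in vessel cells Insig1 (-1.63 ± 0.12) and Srebf2 (-1.08 ± 0.16) were lower, the call of Srebf2 being lost with doublets kept (-0.93). None of the 5 was called in microglia-like cells.

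Across classes Insig1 (rho 0.88) and Srebf2 (rho 0.86) followed the order of the summed synthesis enzymes, and Srebf1 (rho 0.00) and Insig2 (rho 0.02) did not. Ependymal-like cells were high in Srebf1 (67.6 and 59.1 CPM), Insig2 (55.1 and 52.9 CPM) and Scap (39.4 and 46.6 CPM). They were not high in Insig1, at 47.0 and 52.9 CPM against 383 and 368 CPM in astrocyte-like cells. Their summed synthesis enzymes were at 654 and 684 CPM. Differentiating oligodendrocyte-like cells, which came after astrocyte-like cells in synthesis, had the lowest mean of the 2 libraries for Srebf1 and for Insig2. They held 8.52 and 3.47 CPM of Srebf1 and 16.4 and 6.95 CPM of Insig2. They were not lowest in each library. In library 1 the classes with lower Srebf1 included the Sst-led (3.24 CPM), Prokr2-led (6.74 CPM) and excitatory neuron-like (7.41 CPM) classes. In library 2 Srebf1 was lower in Cajal-Retzius-like cells (3.06 CPM). Insig2 was lower in microglia-like cells of library 1. Their library 2 values lie under 10.4 CPM, which is 3 counts in that class, so their place in the order is not firm. Srebf1 overlapped between ependymal-like and astrocyte-like cells. Exons of Srebf1 overlap Rai1 on the opposite strand, and the same holds for Hmgcs1 and Gm48342, Fdft1 and Ctsb, Lss and 4930483K19Rik, Cyp51 and Akap9, and Npc1 and Rmc1. The use of strand in counting is not given in the sources used here, and these counts carry that uncertainty.

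The summed genes of transport and export were highest in other classes than the summed enzymes. Summed over Stard4, Npc1, Abca1 and Abcg1, microglia-like cells were at 424 and 401 CPM, endothelial-like cells at 400 and 383 CPM, border macrophage-like cells at 360 and 364 CPM and astrocyte-like cells at 259 and 243 CPM. The lowest sum was that of the neuroblast-like class, with 42.1 and 33.4 CPM. Microglia-like, endothelial-like and border macrophage-like cells, low in the summed enzymes, thus headed this sum, and astrocyte-like cells stood high in both. Most of the sum in these classes was Abca1, at 265 and 258 CPM in microglia-like and 228 and 235 CPM in endothelial-like cells. Npc1 had another order, with its highest mean in oligodendrocyte precursor-like cells (57.4 CPM) and its lowest in endothelial-like cells (10.4 CPM).

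Abca1, which loads cholesterol onto lipid-poor apolipoproteins (chromosome 4, 53030787 to 53159895, minus strand), was at 265 and 258 CPM in microglia-like cells, against 86.7 and 81.4 CPM, a log2 fold change of 2.99 ± 0.10 (adjusted p = 1.38e-52). In astrocyte-like cells it was at 179 and 158 CPM, against 108 and 106 CPM, a log2 fold change of 1.71 ± 0.09 (adjusted p = 3.19e-33). In the oligodendrocyte lineage it was at 15.8 and 15.04 CPM, against 149 and 142 CPM, a log2 fold change of -2.90 ± 0.15 (adjusted p = 6.02e-35), and in neurons it was lower too (-1.57 ± 0.13). The oligodendrocyte lineage, which came after astrocyte-like cells in synthesis, thus held little Abca1.

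Abcg1, which passes cholesterol to lipidated particles (chromosome 17, 31057675 to 31117988, plus strand), was at 99.3 and 88.0 CPM in microglia-like cells, against 23.0 and 17.1 CPM, a log2 fold change of 3.80 ± 0.15 (adjusted p = 1.06e-45). In vessel cells it was at 68.7 and 44.7 CPM, against 30.6 and 27.9 CPM (2.27 ± 0.18). In astrocyte-like cells it was at 3.30 and 1.18 CPM, against 47.0 and 38.8 CPM, a log2 fold change of -3.24 ± 0.30 (adjusted p = 5.72e-18). The exporters therefore differed in astrocyte-like cells, with Abca1 called higher and Abcg1 called lower. In neurons Abcg1 was lower as well, at 7.32 and 7.58 CPM against 46.0 and 37.2 CPM (-2.15 ± 0.26); with 4000 variable genes in the clustering this difference was -0.88.

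At 2000 UMIs per cell an Abca1 UMI was found in 36.5% and 35.3% of microglia-like cells, 34.4% and 36.5% of endothelial-like cells and 28.6% and 25.6% of astrocyte-like cells. The share was 2.20% and 1.79% in pericyte-like cells and 0.586% and 0.299% in Cajal-Retzius-like cells. Abcg1 was found in 13.4% and 14.6% of microglia-like cells, 17.5% and 13.5% of endothelial-like cells and 0.625% and 0.231% of astrocyte-like cells. Without equal depth the astrocyte-like shares were 46.5% and 45.3% for Abca1 and 1.27% and 0.555% for Abcg1. Border macrophage-like cells, with the most Abca1 (43.7% and 46.2% of cells), had Abcg1 in 2.27% and 2.16% of cells.

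**Figure D5:**
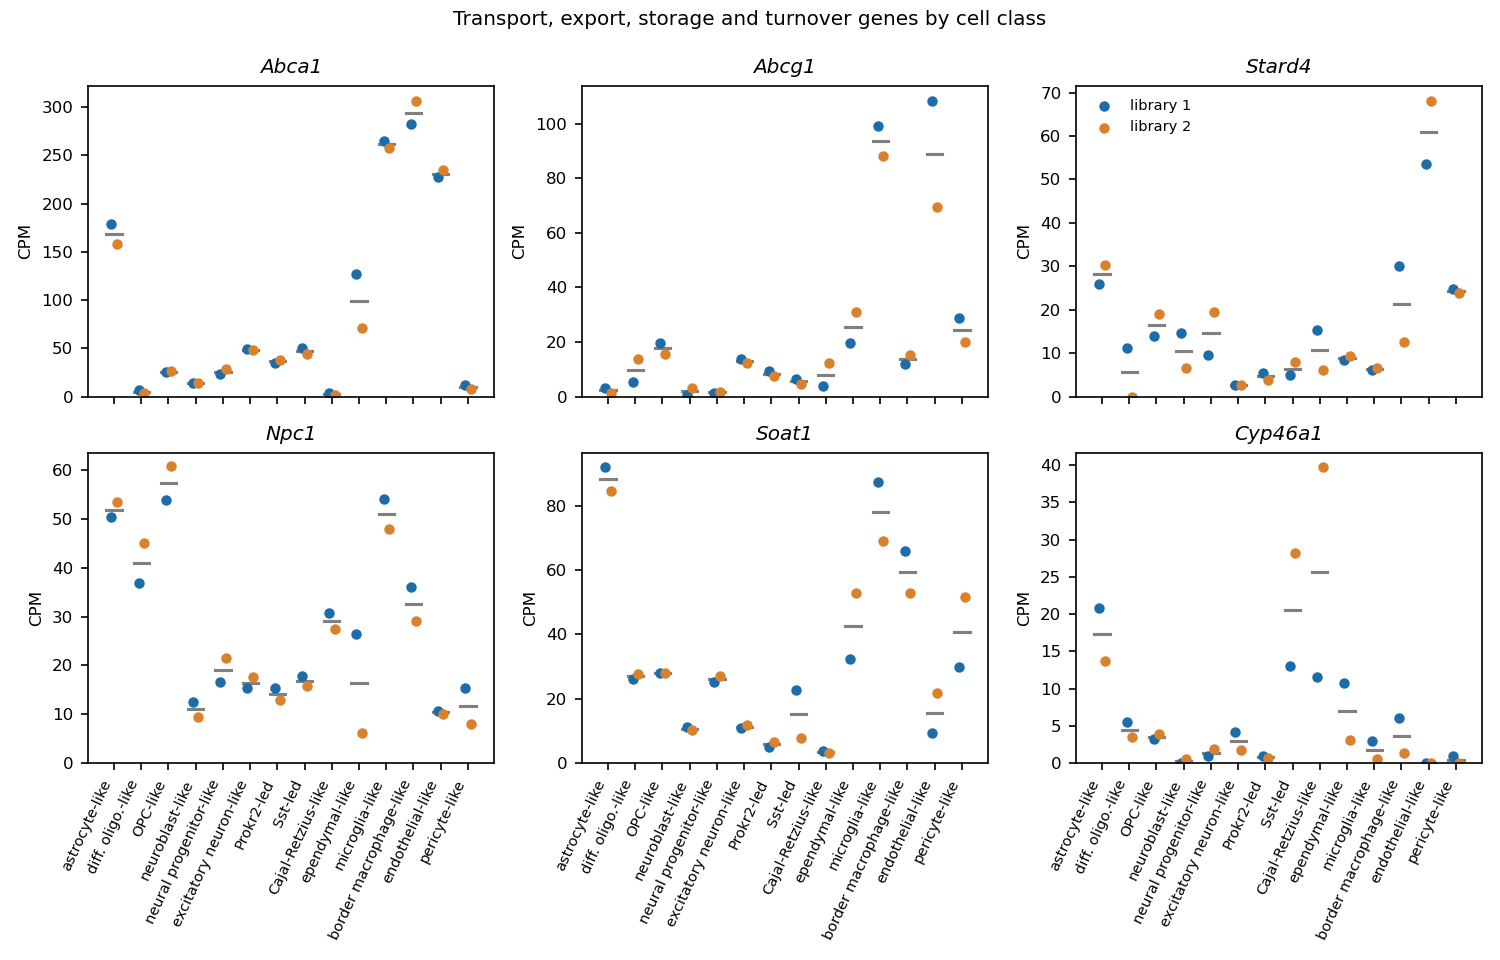
Levels (CPM, linear axes from 0) of Abca1, Abcg1, Stard4, Npc1, Soat1 and Cyp46a1 in the 14 classes; points are the 2 libraries and lines their mean. Abca1 is highest in border macrophage-like (282 and 307 CPM), microglia-like, endothelial-like and astrocyte-like cells, and Abcg1 in microglia-like and endothelial-like cells.

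Stard4, which carries sterol between membranes (chromosome 18, 33199355 to 33213862, minus strand), was at 39.2 and 46.0 CPM in vessel cells, against 13.3 and 12.7 CPM, a log2 fold change of 1.92 ± 0.21 (adjusted p = 5.07e-12). In astrocyte-like cells it was higher by a smaller margin, at 26.0 and 30.3 CPM against 16.6 and 16.7 CPM (1.08 ± 0.18), and this call did not hold under stricter cell quality limits (0.88). Without library 1 the astrocyte-like difference was 1.70, and without library 2 it was 0.96. It was lower in neurons (-1.72 ± 0.24) and in microglia-like cells, where the 6.02 CPM of library 1 stand on a depth at which 9.03 CPM are 3 counts. Without library 1 the microglia-like difference was -0.38, against -1.09 with both.

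Npc1, which lets cholesterol out of the lysosome (chromosome 18, 12189692 to 12236400, minus strand), was at 54.2 and 47.9 CPM in microglia-like cells, against 30.7 and 32.3 CPM, a log2 fold change of 1.29 ± 0.14 (adjusted p = 9.42e-15). It was lower in neurons (-1.45 ± 0.15) and in vessel cells (-1.48 ± 0.21). Astrocyte-like cells, at 50.3 and 53.4 CPM against 31.6 and 30.9 CPM, stayed under a log2 fold change of 1. Oligodendrocyte precursor-like cells held the most of any class, at 53.8 and 60.9 CPM, but overlapped microglia-like cells.

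Of the storage and turnover genes, Soat1, which esterifies cholesterol for storage (chromosome 1, 156424525 to 156474331, minus strand), was at 92.1 and 84.5 CPM in astrocyte-like cells, against 36.2 and 36.1 CPM, a log2 fold change of 1.58 ± 0.10 (adjusted p = 1.5e-27). In microglia-like cells it was at 87.3 and 68.9 CPM, against 37.4 and 40.0 CPM (1.70 ± 0.12, adjusted p = 4.09e-24). In neurons it was at 11.02 and 10.9 CPM, against 56.5 and 54.5 CPM (-2.11 ± 0.15, adjusted p = 1.78e-25). Soat1 was thus called higher in the same 2 lineages as Abca1. By class the genes differed, as endothelial-like cells held Abca1 at 228 and 235 CPM and Soat1 at 9.37 and 21.7 CPM.

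Cyp46a1, which makes 24-hydroxycholesterol and is known in adult brain mainly from neurons (chromosome 12, 108334381 to 108362234, plus strand), was a low gene throughout. It was at 20.9 and 13.8 CPM in astrocyte-like cells, against 2.48 and 1.34 CPM, and was called higher there (log2 fold change 4.29 ± 0.33, adjusted p = 7.01e-22). Endothelial-like cells had no UMI of it in either library, so the fitted size of this and the other Cyp46a1 differences depends on the model. Its call in the oligodendrocyte lineage (1.74 ± 0.51, adjusted p = 0.00272) ran against the plain means, at 4.37 and 3.66 CPM against 6.60 and 3.86 CPM. Its neuron difference had no usable SE (log2 fold change -1.01, adjusted p = 1). Without library 1 the oligodendrocyte difference was 0.88, and without library 2 it was 0.48. Cajal-Retzius-like cells, at 11.5 and 39.7 CPM, and cells of the Sst-led cluster, at 12.97 and 28.3 CPM, overlapped the astrocyte-like values. The 2 astrocyte-like clusters differed, with 30.3 and 27.8 CPM in the Crym-led cluster and 11.4 and 9.65 CPM in the Pla2g3-led cluster.

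Pairs of related classes were compared as well, and in the reported fit none of the 18 synthesis enzymes was called in them. The 2 classes of the neuron lineage, whose summed enzymes lay apart, were not tested against each other. Neural progenitor-like cells belong to none of the 5 lineages. Between differentiating oligodendrocyte-like and oligodendrocyte precursor-like cells, 0 of the 29 members were higher and 2 lower, where 5.04% of all genes were higher and 11.0% lower. The members' median log2 fold change was 0.23, and that of all genes -0.13. At an unadjusted p under 0.05, 10 members had a positive and 4 a negative fold change. None of the 18 enzymes was called by edgeR, and DESeq2 called 1 higher, Mvd. It stood at 71.5 and 83.3 CPM in differentiating cells against 43.9 and 39.4 CPM in precursor-like cells (log2 fold change 0.98). Abca1 was lower, at 6.39 and 3.47 CPM in differentiating cells against 25.1 and 26.6 CPM in precursor-like cells (-1.87 ± 0.32, adjusted p = 5.39e-07). Abcg1 was called lower as well (-1.43 ± 0.33, adjusted p = 0.000238), at 5.48 and 13.9 CPM against 19.6 and 15.7 CPM, but without library 1 the difference was -0.14. Library 2 holds 46 differentiating oligodendrocyte-like cells.

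Between endothelial-like and pericyte-like cells, 3 members were higher and 0 lower, where 8.80% of all genes were higher and 9.50% lower, with medians of 0.05 over the members and -0.06 over all genes. At an unadjusted p under 0.05, 2 members had a negative fold change, and DESeq2 called 0 lower. All 3 called members are genes of transport and export. Abca1 was at 228 and 235 CPM in endothelial-like cells, against 11.8 and 7.93 CPM in pericyte-like cells, a ratio of 23.5 and a log2 fold change of 4.47 ± 0.25 (adjusted p = 3.42e-32). Abcg1 was at 108 and 69.6 CPM, against 28.9 and 19.8 CPM (1.88 ± 0.25, adjusted p = 2.84e-10), and Stard4 at 53.6 and 68.1 CPM, against 24.9 and 23.8 CPM (1.32 ± 0.31, adjusted p = 0.000726). The vessel mean used above therefore joins an Abca1-rich and an Abca1-poor class.

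Between neuroblast-like and neural progenitor-like cells, 0 members were higher and 1 lower, where 1.23% of all genes were higher and 7.02% lower, with medians of -0.02 over the members and -0.05 over all genes. At an unadjusted p under 0.05, 4 members had a positive and 5 a negative fold change, and DESeq2 called 0 higher. Soat1 was at 11.1 and 10.1 CPM in neuroblast-like cells, against 25.1 and 27.2 CPM in progenitor-like cells (-1.26 ± 0.22, adjusted p = 4.15e-06). The count of lower members was between 1 and 5 across other choices of filter and clustering, as Hmgcs1, Mvd, Tm7sf2 and Msmo1 were also called lower under some of them. The neuroblast-like class did not hold the same cells under these choices. It had 786 and 541 cells in the reported run, 1843 and 1368 with stricter cell limits and 4578 and 3860 with 4000 variable genes. The progenitor-like class joins a cluster led by histone genes, with a synthesis sum of 739 and 752 CPM, and a cluster led by Neurog2, Tesc and Eomes, with 1350 and 1801 CPM.

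Clusters inside the other classes are described without a test, since the clustering defined them. The astrocyte-like clusters were at 3265 and 3075 CPM (Pla2g3-led) and 2701 and 2635 CPM (Crym-led) for the summed enzymes. Both therefore stood above every other class. The precursor-like clusters were at 1432 and 1496 CPM in the larger and 1813 and 1911 CPM in the smaller, which was also led by Pdgfra. The microglia-like clusters were at 365 and 312 CPM and 334 and 364 CPM, so the cluster led by Spp1, Gdf15 and Gpnmb did not stand apart from the other in synthesis. In Abca1 it held 311 and 300 CPM, against 97.5 and 157 CPM in the other, which has 18 cells in library 1.

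Genes of related lipid pathways were read from lists made outside the 29 members. Of the 12 fatty acid synthesis genes, many of them SREBP-1 targets, 11 were higher in astrocyte-like cells, where the share of all genes was 20.9%, with Fads2 at 420 and 381 CPM against 27.1 and 27.4 CPM (log2 fold change 4.31 ± 0.10) and Scd1 at 68.8 and 74.3 CPM against 3.97 and 4.89 CPM (5.53 ± 0.19). In the oligodendrocyte lineage 4 of the 12 were higher, against 12.3% of all genes, and the call of Scd1 there ran against the plain means (11.9 and 14.8 CPM against 18.2 and 19.7 CPM). In neurons 2 were higher and 2 lower, near the 12.8% and 12.1% of all genes. In microglia-like cells 8 were lower, against 13.3% of all genes, and in vessel cells 8 were lower, against 11.7%.

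Of 8 other export genes and carriers, 5 were higher and 2 lower in astrocyte-like cells, against 20.9% and 4.70% of all genes. In microglia-like cells 2 were higher and 5 lower, against 17.6% and 13.3% of all genes. In neurons 1 was higher and 4 lower, against 12.8% and 12.1%. The oligodendrocyte lineage had 1 higher and 2 lower, against 12.3% and 7.74%, and vessel cells 2 higher and 3 lower, against 11.9% and 11.7%. The call of Pltp, a phospholipid transfer protein, ran against the plain means, at 19.6 and 11.4 CPM in astrocyte-like cells against 110 and 128 CPM. Apoe, the main lipid carrier of the brain, was at 15648 and 13323 CPM in astrocyte-like cells, against 3120 and 3300 CPM (4.59 ± 0.16), and at 11707 and 12315 CPM in microglia-like cells, against 4106 and 3552 CPM (4.63 ± 0.16). Lcat, which esterifies cholesterol on these particles, was at 62.8 and 81.3 CPM in astrocyte-like cells, against 0.573 and 0.936 CPM (6.90 ± 0.22). Apoe was lower in neurons, in the oligodendrocyte lineage and in vessel cells.

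Of 8 lipoprotein receptor and uptake genes tested, out of 9 on the list, 1 was higher in astrocyte-like cells, 1 was higher and 2 lower in the oligodendrocyte lineage, 2 were higher and 4 lower in neurons, 3 were higher and 2 lower in microglia-like cells, and 4 were higher and 2 lower in vessel cells. The shares of all genes called higher and lower were 20.9% and 4.70% in astrocyte-like cells, 12.3% and 7.74% in the oligodendrocyte lineage, 12.8% and 12.1% in neurons, 17.6% and 13.3% in microglia-like cells and 11.9% and 11.7% in vessel cells. The higher calls of Vldlr in neurons (20.8 and 22.3 CPM against 35.3 and 39.2 CPM) and of Mylip in vessel cells (13.5 and 16.8 CPM against 37.5 and 33.6 CPM) ran against the plain means. Vldlr, a receptor for lipoproteins and reelin, was at 99.4 and 107 CPM in the oligodendrocyte lineage, against 15.7 and 18.1 CPM (3.92 ± 0.27). Lrp8, the related receptor, was at 85.8 and 92.4 CPM in neurons, against 46.3 and 46.7 CPM (2.55 ± 0.11). Mylip, whose product marks lipoprotein receptors for breakdown, was at 144 and 119 CPM in microglia-like cells, against 4.74 and 7.90 CPM (5.78 ± 0.19).

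Of 7 genes of intracellular transfer, 4 were higher and 1 lower in microglia-like cells, against 17.6% and 13.3% of all genes. Npc2, the partner of Npc1 in the lysosome, was at 791 and 752 CPM in microglia-like cells, against 199 and 212 CPM (2.26 ± 0.08), and Lipa, the lysosomal lipase, at 63.2 and 64.9 CPM, against 28.7 and 28.3 CPM (2.50 ± 0.14). In astrocyte-like cells 2 were higher and 1, Lipa, lower (-1.37 ± 0.18), against 20.9% and 4.70% of all genes. Of 6 LXR and oxysterol genes tested, out of 7, 2 were higher in astrocyte-like cells, where 20.9% of all genes were higher. They were Cyp7b1, an oxysterol hydroxylase (4.46 ± 0.39), and Nr1h3, an LXR receptor, whose call ran against the plain means of 3.11 and 3.93 CPM in astrocyte-like cells against 6.095 and 9.82 CPM. Of the same 6 genes, 2 were higher and 1 lower in microglia-like cells, against 17.6% and 13.3% of all genes. The 2 proteases that cleave SREBP were called in none of the 5 lineage comparisons.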

How the data were processed

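Unique molecular identifier counts per gene and cell barcode were deposited by the authors as whole numbers and are not normalized; Cell Ranger 6.1.2 and build mm10 are named in the submitters' processing notes, and cell calling and strand settings are not stated in any label read here. The extract protocol in the labels names the 10x Chromium 3′ kit. Both libraries belong to 1 group, and no column was left unused.

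Cells were kept from 500 detected genes upward and up to 10% mitochondrial counts. Scrublet, run in scanpy 1.11.5 with 6% expected doublets, marked 626 cells in library 1; in library 2 its threshold marked 0, so the 844 cells scoring above its upper 6% point were removed. Counts were scaled to 10000 per cell, and 2000 variable genes, 30 principal components, 15 neighbours and Leiden resolution 1 gave the clusters. Members, pathway genes, ribosomal and mitochondrial genes were kept out of clustering, and the 2041 clustering and marker genes were kept out of testing. A cluster was named from at least 3 detected markers and a minimum mean score on the list. The name was withheld where another list had more markers among the leading genes. It was also withheld from shallow clusters that came almost wholly from a single library. UMIs were summed per library and class (14 classes with at least 30 cells in each library), filtered with filterByExpr, scaled by TMM and tested with edgeR 4.0.16 (R 4.3.3), quasi-likelihood F test, class plus library, 13 residual degrees of freedom, with Benjamini-Hochberg adjustment. Library numbers are those of the sample titles, and each library supplies every class, so library is the block that pairs them. The newer, robust quasi-likelihood estimate was chosen after the older one gave p-values too small to represent. The test was tried on simulated counts.

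The members and gene lists were chosen with earlier results of these data known. All members are named; of each other list, up to 3 genes per comparison are given with values, those with the largest absolute log2 fold change among the called. One short list of other pathway genes is not reported here. In library 2, microglia-like cells, and in library 1, most oligodendrocyte- and pericyte-like cells, supply the counts of their class, so precision differs between libraries. Intervals are 95% Clopper-Pearson on the expected number of cells rounded to a whole number, and a count of 0 allows up to 3 counts. Gene positions are from GENCODE on mm10, and promoters from RefSeq on GRCm38.p6. Alternatives were DESeq2's test (1.42.0) and size factors, no low-count filter, no library block, stricter cell limits, doublets kept, other clustering settings and each library left out.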

Additional observations from a re-analysis of the deposited data

How the results depend on the processing

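Of the 92 calls of members in the 8 comparisons, followed under 10 other settings (920 values), 909 kept the call, 11 lost it and 0 changed sign. The lost calls were Stard4 in microglia-like cells (no library block, doublets kept, Leiden resolution 2 and 4000 variable genes), Stard4 in astrocyte-like cells (stricter cell limits and Leiden resolution 2), Srebf2 in astrocyte-like cells (stricter cell limits), Srebf2 in vessel cells (doublets kept), Abcg1 in neurons (4000 variable genes) and Abcg1 in differentiating oligodendrocyte-like cells (stricter cell limits and 4000 variable genes). In the fit with no replicate block, Stard4 in microglia-like cells had a log2 fold change of -0.93 (edgeR, adjusted p = 0.00385) and Nsdhl in vessel cells was newly called lower at -1.01; no other call of a member changed with the block. Counting the Prokr2-led and Sst-led clusters as neurons and the older quasi-likelihood estimate were settings chosen after seeing the data.

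Of 160 counts under these settings, 144 were within 1.5 times the count reported. With stricter cell limits 2 members, against 1, were lower in the oligodendrocyte lineage, Srebf1 joining Abca1. With 4000 variable genes 1 member, Cyp46a1, was called higher in neurons, at a log2 fold change of 1.17 where the reported fit gave -1.01 without a call. In differentiating oligodendrocyte-like against precursor-like cells 1 member, Mvd, was higher by DESeq2, with doublets kept and with 4000 variable genes, and 1 member was lower with stricter cell limits and with 4000 variable genes. In endothelial-like against pericyte-like cells 1 member was lower with stricter limits and 2 with doublets kept and with 4000 variable genes. In neuroblast-like against progenitor-like cells 1 member, Abcg1, was higher with Leiden resolution 2 and with 4000 variable genes, and 5 were lower with stricter limits or doublets kept and 3 with Leiden resolution 2 or 4000 variable genes. The cells named neuroblast-like also changed between these settings. The cause was not tested.

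Without equal depth the mean shares of cells with at least 3 synthesis UMIs were 93.3% in astrocyte-like, 90.4% in differentiating oligodendrocyte-like, 69.7% in precursor-like, 55.7% in neuroblast-like, 20.9% in excitatory neuron-like, 15% in microglia-like, 31.6% in endothelial-like and 20.7% in pericyte-like cells, as deeper cells hold more UMIs. With doublets kept and equal depth they were 80.7% in astrocyte-like, 54.0% in differentiating oligodendrocyte-like, 46.5% in precursor-like, 25.1% in neuroblast-like, 7.59% in excitatory neuron-like and 8.31% in pericyte-like cells. The neuroblast-like class then held 1462 and 845 cells, against 786 and 541 in the reported run, so its shares are not of the same cells.

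With 1 library left out no residual degrees of freedom among samples remain, so such values have no test and no count. Of 184 values of the called members from a single library, 0 changed sign, 80 moved by more than 1 SD between the libraries and 12 fell under a log2 change of 1. The values under 1 and those that moved by over 1.5 times stand beside their genes above, except Cyp46a1 in vessel cells (-2.25 without library 1 and -2.26 without library 2, against -3.79). Depth limits the low genes most: 3 counts are 9.03 CPM in microglia-like cells of library 1, 10.4 CPM in differentiating oligodendrocyte-like cells and 11.9 CPM in pericyte-like cells of library 2.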
